A study of Mus musculus with 3 samples.

Results

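The 10 genes described here encode the machinery that loads peptides onto classical MHC class I molecules: the heavy chains H2-K1 and H2-D1, the light chain B2m, the peptide transporter subunits Tap1 and Tap2, the loading factor Tapbp (tapasin), the immunoproteasome subunits Psmb8, Psmb9 and Psmb10, and the class I transactivator Nlrc5. The list was set by gene name, with no measured value in its rule, although earlier results of these data were known, and each of the 10 symbols had exactly 1 row in the deposited tables, among 17250 gene names. The study followed the effect of recombinant LECT2, a leukocyte chemotactic protein, on the BM of C57BL/6 mice of 6 to 8 weeks. The labels name no mutant allele, and the groups differed in the length of treatment. In the 0 days group no daily injection had been given, and whether a vehicle was injected instead is not given in the labels. In the 3 days and 5 days groups LECT2 had been injected under the skin at 300 μg per kg each day for 3 or 5 days. RNA of cells flushed from the long bones and pelvis was sequenced as 1 library per group. The labels speak of BM cells and a legend of the study of mononuclear cells, and whether the cells were separated before extraction is not given in the sources used here. No difference below therefore has a replicate check, and how many mice were pooled in a library is not given in the sources used here.

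Class I molecules display short peptides from the inside of a cell to CD8 T cells and to receptors of NK cells. Proteasomes cut proteins into peptides, the immunoproteasome subunits replacing their standard counterparts in the catalytic core of haematopoietic and interferon-exposed cells. The TAP transporter carries the peptides into the endoplasmic reticulum, tapasin helps them onto a heavy chain held by B2m, and NLRC5 joins transcription factors bound to a conserved group of promoter boxes, the SXY module, to switch on these genes. In BM most nucleated cell types carry class I, so the levels below are sums over the cell types present.

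RefSeq promoter windows (GRCm38.p6), from 250 bases before to 50 after the gene start, were found for 8 of the 10 genes, and not for Tap2 and Nlrc5. The stretch before the start is shown for H2-K1 and B2m, as examples of a heavy chain and of the light chain. H2-D1 also holds a match to each of the boxes searched, but its stretch overlaps an annotated UTR, so only short sites are printed. Capitals mark matches on either strand to GGGANTCCC (kB-like), GAAANNGAA or GAANNGAAA (interferon-response-like), TGACG (CRE-like) and CCAAT, where N is any base. These letters were chosen with the class I promoters in view. The H2-K1 stretch covers chr17:34000348-34000527 on the minus strand, and that of B2m chr2:122147507-122147685 on the plus strand.
H2-K1: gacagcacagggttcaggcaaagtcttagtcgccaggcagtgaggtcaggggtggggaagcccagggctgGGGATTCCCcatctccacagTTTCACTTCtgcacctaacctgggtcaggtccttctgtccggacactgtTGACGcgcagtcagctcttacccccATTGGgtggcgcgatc
B2m: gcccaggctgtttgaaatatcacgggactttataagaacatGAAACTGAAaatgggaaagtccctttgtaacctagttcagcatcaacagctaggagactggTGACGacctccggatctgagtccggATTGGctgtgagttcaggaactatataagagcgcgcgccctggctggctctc

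In H2-K1, H2-D1 and B2m a TGACG stood ahead of an ATTGG, the CCAAT box read on the other strand, with 20 bases between them in each promoter. The sites are shown for this shared spacing, with the letters of both boxes in capitals. They lie at chr17:34000359-34000388 (minus strand), chr17:35262993-35263022 (plus strand) and chr2:122147609-122147638 (plus strand).
H2-K1: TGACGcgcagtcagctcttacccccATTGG
H2-D1: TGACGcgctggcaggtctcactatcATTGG
B2m: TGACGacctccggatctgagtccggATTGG
Between the boxes H2-D1 differed from H2-K1 at 7 of the 20 bases, and B2m differed from H2-K1 at 17. The same arrangement on the gene's own strand was found in 19 of 32851 promoter windows (0.0578%), which belong to 16 genes. Besides these 3 members, it was found in 1 of the 13 windows of other class I and class I-like genes (7.69%), that of the class I gene H2-M3. It was not found in the windows of Tap1, Tapbp, Psmb8, Psmb9 or Psmb10, which says only that these letters are not in those windows. A match of letters is a description and not a binding site.

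The heavy chain genes also share the stretch that holds the kB-like and interferon-response-like boxes, shown in capitals below. It lies at chr17:34000429-34000458 (minus strand) for H2-K1 and at chr17:35262923-35262952 (plus strand) for H2-D1.
H2-K1: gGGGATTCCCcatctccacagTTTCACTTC
H2-D1: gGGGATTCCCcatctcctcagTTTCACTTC
These stretches differed at 1 of 30 bases. The kB-like letters were found in H2-K1 and H2-D1 and in 0.767% of all windows, the interferon-response-like letters in H2-K1, H2-D1 and B2m and in 14.8% of all windows. TGACG was found in 5 of the 8 member windows (20.8% of all windows) and CCAAT in 6 of 8 (37.4%). Tap1 and Psmb9 are transcribed away from each other from starts 226 bases apart in RefSeq, so their promoter windows overlap.

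The 3 libraries held 15146983 to 15523952 reads counted on genes. The tables list whole read counts and RPKM, that is, reads scaled to gene length and to all counted reads of the library, which allows levels of different genes to be compared within a library. Changes are log2 ratios taken after 0.1 was added to each RPKM, so changes of weakly expressed genes are understated. Each interval in parentheses is the exact 95% interval (Clopper-Pearson) for a ratio of 2 read counts and covers counting error only, since PCR reads are not independent molecules and mice were not replicated. A gene was called changed at 2-fold, among genes with at least 1 RPKM in either library. Across 11144 genes whose mean RPKM was at least 1, the median of the ratios was 0.10 at 3 against 0 days, 0.31 at 5 against 0 days and 0.25 at 5 against 3 days, and TMM scaling, in which edgeR sets the library factors from the bulk of genes rather than from all reads, brought these to 0.02, 0.01 and 0.03. A log2 ratio below these medians is therefore low relative to the genes as a whole. Ratios also rose with gene length, so members are set beside the median of genes of similar length, and values are also given after this trend, a smooth curve through all genes, was subtracted (length trend removed). The 3 comparisons share libraries and are not independent of each other.

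Most of the class I genes were modestly lower after LECT2 treatment, and none fell 2-fold. At 3 against 0 days 9 of the 10 had a log2 ratio below 0, with counting intervals that excluded 0, and the median of the 10 was −0.32. Nlrc5 was the exception, at 0.52. Among all genes tested, 42.9% had a ratio below 0. A rise of at least 2-fold was seen for 0 members (4.08% of all genes) and a fall of that size for 0 (2.41%). Under TMM scaling 9 of 10 members lay below 0 (49.3% of all genes), and with the length trend removed 7 of 10 (50.1%).

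At 5 against 0 days 7 of 10 members were below 0 (32.7% of all genes) and the median of the 10 was −0.24, against 0.31 for all genes. Nlrc5 was the only member called, 1 of 10 at least 2-fold higher (15.5% of all genes), and 0 of 10 were at least 2-fold lower (5.91%). Under TMM scaling 9 of 10 were below 0 (49.5% of all genes), with a median of −0.55, and with the length trend removed 7 of 10 (49.7%), with a median of −0.19. Between 3 and 5 days the members moved both ways. A ratio below 0 was seen for 4 of 10 (26.8% of all genes), for 6 of 10 under TMM scaling (46.9%) and for 7 of 10 with the length trend removed (49.7%). From 3 to 5 days 0 members rose by 2-fold or more (1.95% of all genes) and 0 fell by as much (3.45%), and the median was 0.04. Together the 10 genes took 0.539%, 0.455% and 0.423% of the counted reads after 0, 3 and 5 days.

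**Figure D1:**
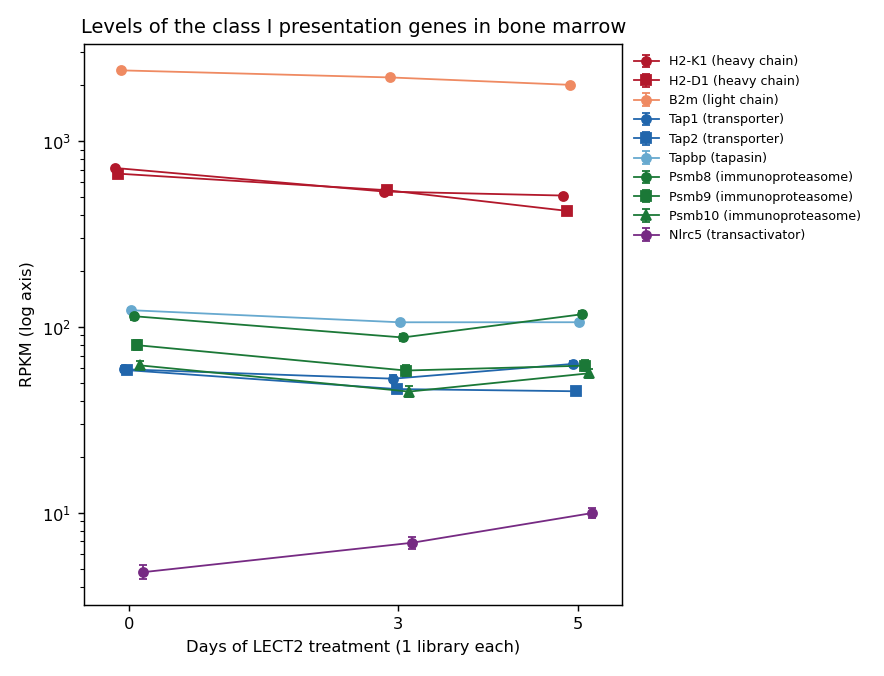
RPKM of the 10 genes (log axis) in the libraries of 0, 3 and 5 days of LECT2 treatment, with 95% Poisson intervals of the read counts as bars and points shifted sideways for legibility. B2m lies at the top, between 2008 and 2402 RPKM, the heavy chains follow between 421 and 717, and Nlrc5 lies lowest, rising from 4.79 to 9.95.

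**Figure D2:**
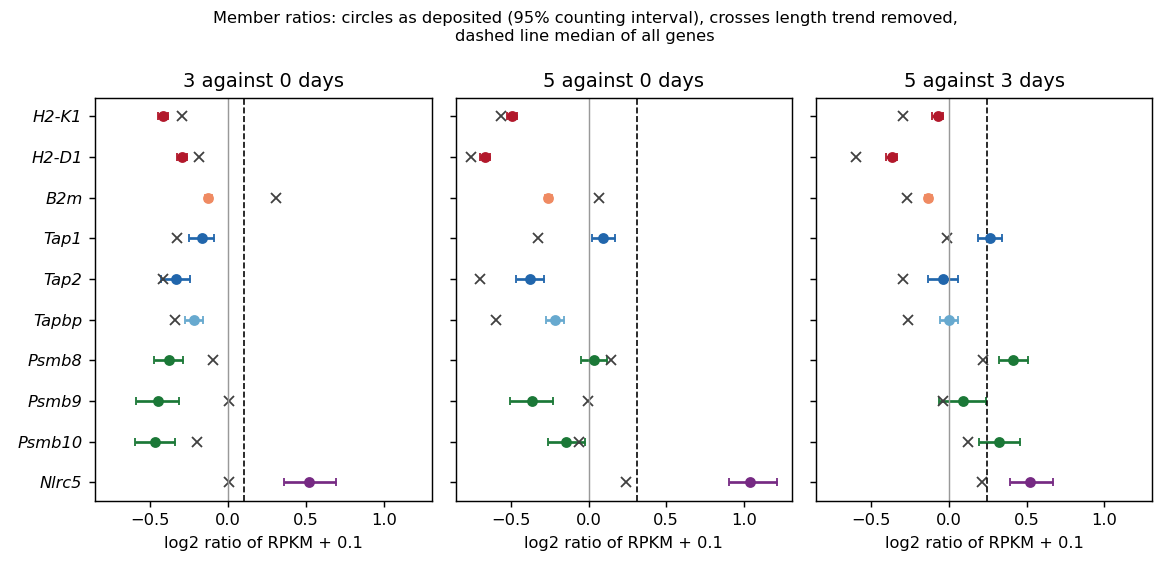
Log2 ratio of RPKM + 0.1 for each gene in the 3 comparisons. Circles show the deposited RPKM with 95% counting intervals, crosses the value with the length trend removed, and the dashed line the median of all genes (0.10, 0.31 and 0.25). Most circles lie left of the dashed line, and the crosses of Nlrc5, Psmb9 and B2m lie far from their circles at 3 days.

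The heavy chains form the peptide groove and carry the polymorphism of class I. H2-K1 (chromosome 17, 33996017 to 34000347, minus strand, GENCODE M21 on GRCm38) had 18575, 13531 and 13186 reads after 0, 3 and 5 days, or 717, 535 and 509 RPKM. Both treated libraries were lower than the untreated one, and most of the difference was present at 3 days. Its log2 ratio was −0.42 at 3 days (−0.45 to −0.39) and −0.49 at 5 days (−0.53 to −0.46). H2-D1 (chromosome 17, 35262730 to 35267499, plus strand) had 18004, 14305 and 11352 reads, or 668, 544 and 421 RPKM. It was lower at each later time, with log2 ratios of −0.30 at 3 days (−0.33 to −0.26) and −0.66 at 5 days (−0.70 to −0.63), and at 5 days its level was 63.1% of that at 0 days, the lowest percentage of the 10 genes.

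Among all genes tested at 5 days, H2-D1 lay at percentile 10.6 and H2-K1 at percentile 14.4 of the log2 ratio. Genes of 1495 to 1885 bases, the length decile of both, had a median of 0.08 at 5 days. H2-K1 differed from that median by −0.57 and H2-D1 by −0.74. At 3 days the differences from the median of that decile were −0.31 and −0.19. Under TMM scaling their ratios at 5 days were −0.80 and −0.97. The ratio of H2-K1 to H2-D1 within a library, which does not depend on library scaling, was 1.07 at 0 days (1.05 to 1.10), 0.984 at 3 days (0.961 to 1.01) and 1.21 at 5 days (1.18 to 1.24). From 0 to 5 days it changed by a factor of 1.13 (1.09 to 1.16).

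The heavy chain genes are near copies of each other, and the counts depend on how the authors assigned shared reads, which the sources used here do not give. In GENCODE M21 transcripts 8.79% of the 50-base stretches of H2-K1 and 14.3% of those of H2-D1 also occur in transcripts of other genes. H2-K1 shares the most with H2-D1 (6.94%), and H2-D1 with H2-Q1 (7.40%). Summed over the 24 names of class I heavy chains in the tables, the reads were 48518, 38497 and 33814 after 0, 3 and 5 days. Whether the sum lessens the effect of sharing depends on that assignment and was not tested. The log2 ratio of this sum was −0.30 at 3 days (−0.32 to −0.28) and −0.52 at 5 days (−0.54 to −0.50). H2-K1 and H2-D1 gave 75.4%, 72.3% and 72.6% of these reads.

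B2m, the invariant light chain that every classical heavy chain needs to reach the surface, lies on chromosome 2 (122147686 to 122153083, plus strand). It had the most reads of the 10 genes, 32000, 28600 and 26732 after 0, 3 and 5 days, or 2402, 2201 and 2008 RPKM, percentile 99.9 of the genes with reads in each library. Its order across the time points was that of H2-D1, lower at each later time, but the differences were smaller. The log2 ratio was −0.13 at 3 days (−0.15 to −0.10) and −0.26 at 5 days (−0.28 to −0.24). B2m is short, at 858 bases, and genes of up to 1050 bases had medians of −0.49 and −0.43 at the same times. With the length trend removed the direction of B2m turned, to 0.31 at 3 days and 0.07 at 5 days, while under TMM scaling it was −0.21 and −0.57. The RPKM of B2m was 1.28 times the summed RPKM of the 24 heavy chain names at 0 days, 1.44 times at 3 days and 1.53 times at 5 days. No 50-base stretch of the B2m transcript was found in another gene.

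Tap1 and Tap2 encode the partner subunits of the transporter that brings peptides into the endoplasmic reticulum. Tap1 (chromosome 17, 34187553 to 34197225, plus strand) had 2709, 2352 and 2893 reads after 0, 3 and 5 days, or 59.2, 52.6 and 63.2 RPKM. The 3 days library was the lowest and the 5 days library the highest. Its log2 ratio was −0.17 at 3 days (−0.25 to −0.09) and 0.10 at 5 days (0.02 to 0.17), but at 5 days it was −0.21 under TMM scaling and −0.32 with the length trend removed, so its direction depended on the processing. Tap2 (chromosome 17, 34203527 to 34216321, plus strand) had 2262, 1746 and 1740 reads, or 58.5, 46.3 and 45.0 RPKM. Both treated libraries were lower, with log2 ratios of −0.34 at 3 days (−0.43 to −0.25) and −0.38 at 5 days (−0.47 to −0.29), and the value of 5 against 3 days, −0.04 (−0.14 to 0.06), was within counting error on the deposited scale. Under TMM scaling Tap2 was at −0.69 at 5 against 0 days and −0.26 at 5 against 3 days, and with the length trend removed at −0.70 and −0.30.

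At 0 days Tap1 and Tap2 were at nearly equal levels per length, with a ratio of 1.01 (0.956 to 1.07). At 3 days the ratio was 1.14 (1.07 to 1.21) and at 5 days 1.40 (1.32 to 1.49), so the transporter subunits diverged by a factor of 1.39 (1.28 to 1.51) from 0 to 5 days. Tap1 is listed with 2950 bases and Tap2 with 2490, and the medians of their length deciles at 5 days were 0.40 and 0.33. The part of gene length in this divergence was not tested. In GENCODE M21 the first exon of Tap1 begins within the span of the Psmb9 gene on the opposite strand. The RefSeq starts, 226 bases apart, leave no such overlap, and the annotation behind the counts is not given in the sources used here. The library kit did not mark the strand, so reads of an overlap could not be assigned to either gene by strand.

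Tapbp encodes tapasin, which bridges TAP and the empty class I molecule and edits its peptide. It lies on chromosome 17 (33915899 to 33929292, plus strand) and had 5252, 4411 and 4521 reads after 0, 3 and 5 days, or 123, 106 and 106 RPKM. Both treated libraries were lower, with log2 ratios of −0.22 at 3 days (−0.27 to −0.16) and −0.22 at 5 days (−0.27 to −0.16). Genes of 2697 to 3158 bases had medians of 0.16 and 0.40, and Tapbp differed from these by −0.37 and −0.62. On the deposited scale the treated libraries were level with each other, but at 5 against 3 days Tapbp was at −0.22 under TMM scaling and −0.26 with the length trend removed.

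Psmb8, Psmb9 and Psmb10 encode the catalytic subunits that replace Psmb5, Psmb6 and Psmb7 in the immunoproteasome. Psmb8 (chromosome 17, 34197721 to 34201454, plus strand) had 2168, 1625 and 2220 reads after 0, 3 and 5 days, or 114, 87.7 and 117 RPKM. It was lowest at 3 days, with a log2 ratio of −0.38 (−0.47 to −0.29), and at 5 days it lay within counting error of 0 days, at 0.04 (−0.05 to 0.12). That value depended on the processing, being −0.27 under TMM scaling, −0.17 when the top 100 genes were left out of the scaling and 0.14 after removal of the length trend. Psmb9 (chromosome 17, 34181987 to 34187764, minus strand) had 998, 711 and 774 reads, or 79.8, 58.2 and 61.9 RPKM. Its log2 ratio was −0.45 at 3 days (−0.59 to −0.31) and −0.37 at 5 days (−0.50 to −0.23), and with the length trend removed both values were 0.00 to 2 decimals. Psmb10 (chromosome 8, 105935735 to 105938444, minus strand) had 1224, 863 and 1108 reads, or 62.1, 44.9 and 56.2 RPKM. Like Psmb8 it was lowest at 3 days, at −0.47 (−0.60 to −0.34), and nearer to 0 days at 5 days, at −0.14 (−0.26 to −0.02). Under TMM scaling the values of Psmb9 and Psmb10 at 5 days were −0.67 and −0.45.

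These subunits are short, between 806 and 1270 bases, and genes of that length had negative medians at 3 days, of −0.49 in the shortest decile and −0.27 in the next. With the length trend removed the 3-day values of Psmb8 and Psmb10 were −0.10 and −0.20. Between 3 and 5 days Psmb8 was higher by 0.42 (0.32 to 0.51) and Psmb10 by 0.33 (0.20 to 0.46), and with the length trend removed by 0.22 and 0.13. Psmb9 differed by 0.09 (−0.06 to 0.24) in that comparison. Under TMM scaling the rises of Psmb8 and Psmb10 were 0.19 and 0.10, and Psmb9 turned to −0.14, or to −0.035 after removal of the length trend.

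Each immunoproteasome subunit was set against the standard subunit it replaces, read in the same library. The partners differ in length, with 1223 bases for Psmb8 and 871 for Psmb5, 806 for Psmb9 and 1036 for Psmb6, and 1270 for Psmb10 and 969 for Psmb7, so their ratios are not free of the length trend. Psmb8 was at 2.24 times the level of Psmb5 at 0 days (2.05 to 2.44), 2.11 times at 3 days (1.91 to 2.33) and 2.28 times at 5 days (2.10 to 2.49). The change from 0 to 5 days, by a factor of 1.02 (0.903 to 1.15), was within counting error. Psmb9 was about level with Psmb6, at 1.02 times (0.939 to 1.11) at 0 days and 0.985 times (0.892 to 1.09) at 3 days, and lower than it at 5 days, at 0.840 times (0.766 to 0.920). That change from 0 to 5 days was a factor of 0.822 (0.726 to 0.931). Psmb10 stayed below Psmb7, at 0.553 times (0.513 to 0.595) at 0 days, 0.527 times (0.482 to 0.575) at 3 days and 0.633 times (0.584 to 0.686) at 5 days, and its change from 0 to 5 days was a factor of 1.15 (1.03 to 1.28). None of the 3 ratios changed beyond counting error from 0 to 3 days, although all 6 genes were lower at 3 days on the deposited scale. After removal of the length trend the 3-day values were −0.10 for Psmb8 and 0.13 for Psmb5, 0.00 for Psmb9 and −0.04 for Psmb6, and −0.20 for Psmb10 and −0.01 for Psmb7. With the length trend removed, the log2 ratios at 5 against 0 days were 0.14 for Psmb8 and 0.32 for Psmb5, 0.00 for Psmb9 and 0.13 for Psmb6, and −0.058 for Psmb10 and −0.090 for Psmb7. On that scale Psmb10 and Psmb7 differed little, and Psmb8 and Psmb9 were each below their partner.

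**Figure D3:**
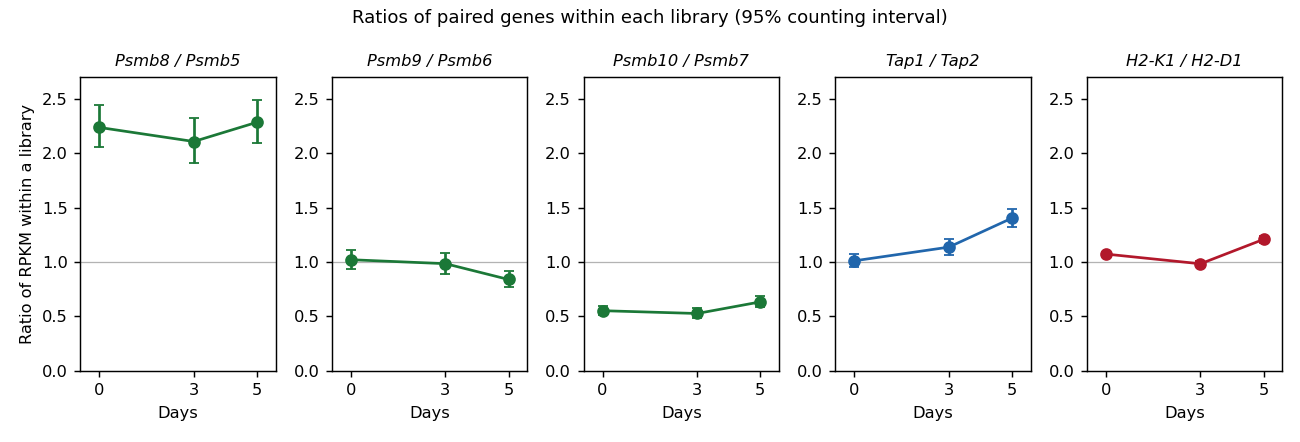
Ratio of RPKM of paired genes within each library (linear axis from 0, 95% counting intervals as bars) at 0, 3 and 5 days. Psmb8 to Psmb5 stayed between 2.11 and 2.28, Psmb9 to Psmb6 was lowest and Psmb10 to Psmb7 highest at 5 days, and Tap1 to Tap2 went from 1.01 to 1.40.

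Nlrc5, the transactivator, lies on chromosome 8 (94434356 to 94527272, plus strand) and had the fewest reads per length of the 10 genes, with 516, 725 and 1072 reads after 0, 3 and 5 days, or 4.79, 6.89 and 9.95 RPKM. It was higher at each later time, while the genes it is known to switch on were near their starting level or lower. The log2 ratio was 0.52 at 3 days (0.36 to 0.69) and 1.04 at 5 days (0.90 to 1.21), a 2.06-fold rise. The deposited length of Nlrc5 is 6945 bases, and genes of the longest decile, from 5801 bases, had medians of 0.55 at 3 days and 0.85 at 5 days. Its 3-day value was thus about that of long genes in general, and its 5-day value exceeded their median by 0.19. With the length trend removed Nlrc5 was at 0.01 and 0.24, and under TMM scaling at 0.43 and 0.74, so the 2-fold call was made with the deposited scaling and not with these.

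**Figure D4:**
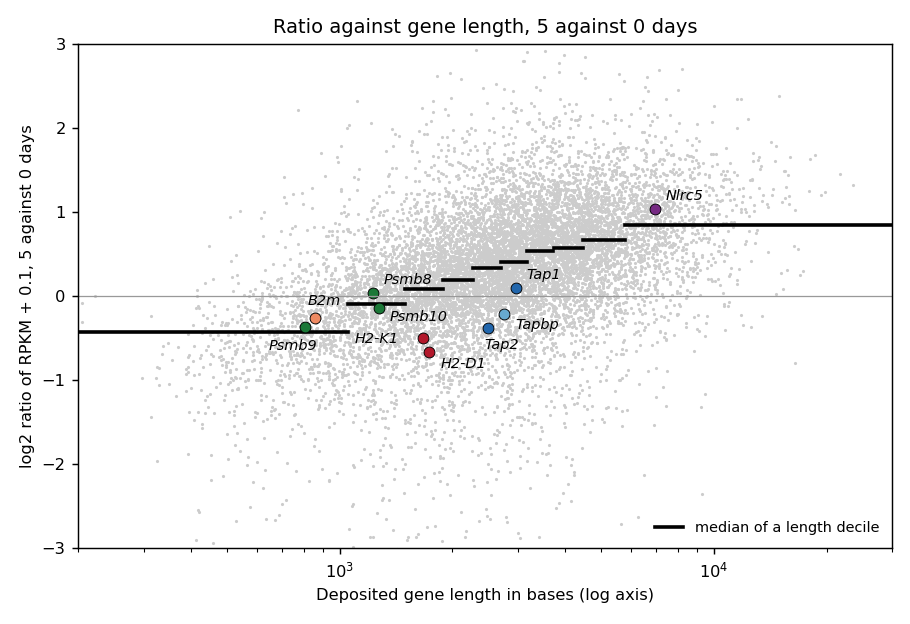
Log2 ratio of RPKM + 0.1 at 5 against 0 days against the deposited gene length (log axis) for all genes whose mean RPKM was at least 1 (grey; values beyond ±3 or lengths outside the axis are not drawn). Black bars mark the median of each length decile, from −0.43 to 0.85, and coloured points the 10 genes. Nlrc5, Psmb8, Psmb9, Psmb10 and B2m lie near the bars, and H2-K1, H2-D1, Tap1, Tap2 and Tapbp below them.

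Within each library the order by RPKM ran from B2m over the heavy chains, Tapbp and Psmb8 to the other subunits and Nlrc5. The level of B2m was 3.35, 4.05 and 3.94 times that of the next gene after 0, 3 and 5 days. H2-K1 and H2-D1 differed beyond counting error at 0 and 5 days but not at 3 days, where H2-D1 was 1.02 times H2-K1 (0.993 to 1.04). At 0 days the neighbours Psmb10, Tap1 and Tap2 did not differ beyond counting error, with steps of 1.05 times (0.980 to 1.12) and 1.01 times. Tapbp stood above Psmb8 at 0 and 3 days, and at 5 days Psmb8 was 1.10 times Tapbp (1.05 to 1.16). The gene just above Nlrc5, Tap2 at 0 and 5 days, was at 12.2 times its level at 0 days and 4.53 times at 5 days.

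The other genes of the pathway were taken from lists of class I-like chains, loading and trimming factors, proteasome subunits, regulators and receptors. Of 21 other class I heavy chains and class I-like genes, 14 passed the minimum of 1 RPKM in each comparison. At 5 against 0 days 2 of these 14 rose by 2-fold or more (15.5% of all genes) and 2 fell by as much (5.91%), with a median of −0.23, or −0.53 under TMM scaling. Under TMM scaling and with the length trend removed 1 rose and 2 fell. The gene that still rose was H2-Q6, which had only 5, 27 and 19 reads after 0, 3 and 5 days. Its log2 ratio at 5 days was 1.65 (0.46 to 3.70). H2-Q4 and H2-T23, non-classical class I chains and the most abundant of the list, went from 203 to 159 and 148 RPKM and from 106 to 92.0 and 79.4 RPKM, with log2 ratios at 5 days of −0.46 and −0.42, or −0.77 and −0.73 under TMM scaling. H2-Q10, a secreted class I chain best known from liver, had 462, 554 and 51 reads after 0, 3 and 5 days, a log2 ratio at 5 days of −3.12. Of 6 hepatocyte markers only Alb had a row, with 1, 0 and 0 reads. Other genes hold 11.0% of the 50-base stretches of H2-Q10, 24.25% of those of H2-Q4, 28.8% of those of H2-T23 and 10.9% of those of H2-K2. H2-K2 fell from 38.1 RPKM to 24.9 and 11.7, a log2 ratio at 5 days of −1.69. Hfe, the class I-like regulator of iron uptake, went from 4.45 to 6.63 and 9.06 RPKM, with a ratio of 1.01. It is the gene whose call was lost, at 0.70 under TMM scaling and 0.92 with the length trend removed. H2-M3, which presents formylated peptides and shares the promoter spacing above, went from 18.2 to 13.0 and 14.7 RPKM.

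Of 12 peptide loading and trimming genes 1 had a ratio below 0 at 5 days, against 32.7% of all genes. At least 2-fold higher were 4 of the 12 genes (15.5% of all genes) and 0 were lower, with a median of 0.52 (0.31 for all genes). Under TMM scaling 3 were higher and the median was 0.22, and after removal of the length trend these were 1 and 0.26. Calr and Pdia3, the chaperone calreticulin and the disulphide isomerase of the loading complex, went from 383 to 361 and 543 RPKM and from 162 to 160 and 227 RPKM, with log2 ratios at 5 days of 0.50 and 0.49. Under TMM scaling these were 0.19 and 0.18, and with the length trend removed 0.34 and 0.13. The trimming peptidases Lnpep and Erap1 had ratios at 5 days of 2.06 (1.92 to 2.25) and 1.57 (1.45 to 1.72), the glucosyltransferase Uggt1 1.53 and the peptidase Tpp2 1.09. These last 4 genes are between 4014 and 9045 bases long, and with the length trend removed their values were 1.38, 1.00, 0.63 and 0.46.

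The remaining 20S proteasome subunits form the body of the particle. All 11 of them had a log2 ratio below 0 at 3 days (42.9% of all genes, median −0.41) and at 5 days (32.7%, median −0.23). With the length trend removed Psma2, Psma7 and Psmb2 were above 0 at 3 days, and Psma4, Psma5, Psma7 and Psmb2 at 5 days. Of the 11, 0 reached 2-fold in any comparison, where between 1.95% and 15.5% of all genes were called in a given direction. Psmb1 and Psma1, the most abundant by their mean over the 3 libraries, went from 203 to 132 and 149 RPKM and from 154 to 123 and 137 RPKM. The standard catalytic subunits Psmb7 and Psmb6 went from 112 to 85.2 and 88.8 RPKM and from 78.1 to 59.1 and 73.7 RPKM. Of 6 activator and assembly genes 0 reached 2-fold in any comparison (1.95% to 15.5% of all genes in a given direction). Psme1, a subunit of the interferon-inducible cap, went from 269 to 188 and 210 RPKM, and Pomp, the assembly chaperone, from 220 to 130 and 138 RPKM. The medians of the 11 subunits with the length trend removed were −0.05 at both times, and under TMM scaling −0.49 at 3 days and −0.54 at 5 days. For the 6 activator and assembly genes the medians were −0.50 at 3 days and −0.24 at 5 days, −0.12 and −0.02 after removal of the length trend and −0.58 and −0.55 under TMM scaling.

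Among 24 transcription factors and interferon signalling genes, 22 passed the minimum at 5 against 0 days, of which 2 rose by 2-fold or more (15.5% of all genes) and 3 fell by as much (5.91%), with a median of 0.33. Under TMM scaling 1 rose and the median was 0.02. Removing the length trend left 0 that rose and turned the median to −0.18. Irf1, a factor known to act at class I and immunoproteasome promoters, fell from 91.3 to 68.3 and 42.5 RPKM, a log2 ratio at 5 days of −1.10. Ifng, the cytokine that induces these genes, was counted with 119, 36 and 31 reads, with log2 ratios of −1.64 (−2.27 to −1.14) and −1.88 at 3 and 5 days. Irf8 and Ifngr1, the most abundant of the list by their mean over the 3 libraries, had ratios at 5 days of 0.63 and 0.29. Under TMM scaling Irf8 was at 0.32 and Ifngr1 turned to −0.015, and with the length trend removed they were at 0.24 and 0.091. The kinases Tyk2 and Jak2 were higher at 5 days, at 1.36 and 1.01, but both are long and their values were 0.71 and 0.35 with the length trend removed. Of 12 interferon-gamma-inducible GTPases and chemokines 10 passed the minimum at 5 days. Of these 1 was at least 2-fold higher (15.5% of all genes) and 1 at least 2-fold lower (5.91%). The median was 0.22, or −0.07 under TMM scaling and −0.17 with the length trend removed. The gene called higher was Irgm2, at 1.12, and its call was lost under TMM scaling, at 0.82, and with the length trend removed, at 0.60. Cxcl10 fell from 106 to 49.7 and 6.79 RPKM, Irgm1 went from 18.8 to 23.5 and 28.2 RPKM, and Irgm2 from 2.93 to 5.28 and 6.51 RPKM.

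Of 7 listed genes for receptors that read class I, 6 had a row. At 3 days 4 of these 6 had a ratio below 0 (42.9% of all genes), and 2 were at least 2-fold lower (2.41%). Their median was −0.77, against 0.10 for all genes. After removal of the length trend 0 were 2-fold lower at 3 days. At 5 days 5 of the 6 were below 0 (32.7% of all genes), with a median of −0.53. Of the 6, 0 were then at least 2-fold lower (5.91% of all genes), or 1 under TMM scaling. Klrd1, an NK cell receptor chain, had 208, 97 and 144 reads after 0, 3 and 5 days. Lilrb4, an inhibitory receptor of myeloid cells, went from 217 to 285 and 135 RPKM. Of 6 MHC class II genes, read for comparison, 6 had a ratio below 0 at 3 days (42.9% of all genes) and 4 at 5 days (32.7%). At least 2-fold lower were 0 at 3 days (2.41% of all genes) and 0 at 5 days (5.91%), and 0 were 2-fold higher (4.08% and 15.5%). The medians were −0.49 and −0.56. With the length trend removed they were −0.24 and −0.56, and H2-DMa turned from −0.05 to 0.08 at 3 days. Under TMM scaling 2 of the 6 were at least 2-fold lower at 5 days (5.91% of all genes on the deposited scale), with a median of −0.87. Cd74 went from 1037 to 776 and 717 RPKM, and H2-Aa from 383 to 253 and 223 RPKM.

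**Figure D5:**
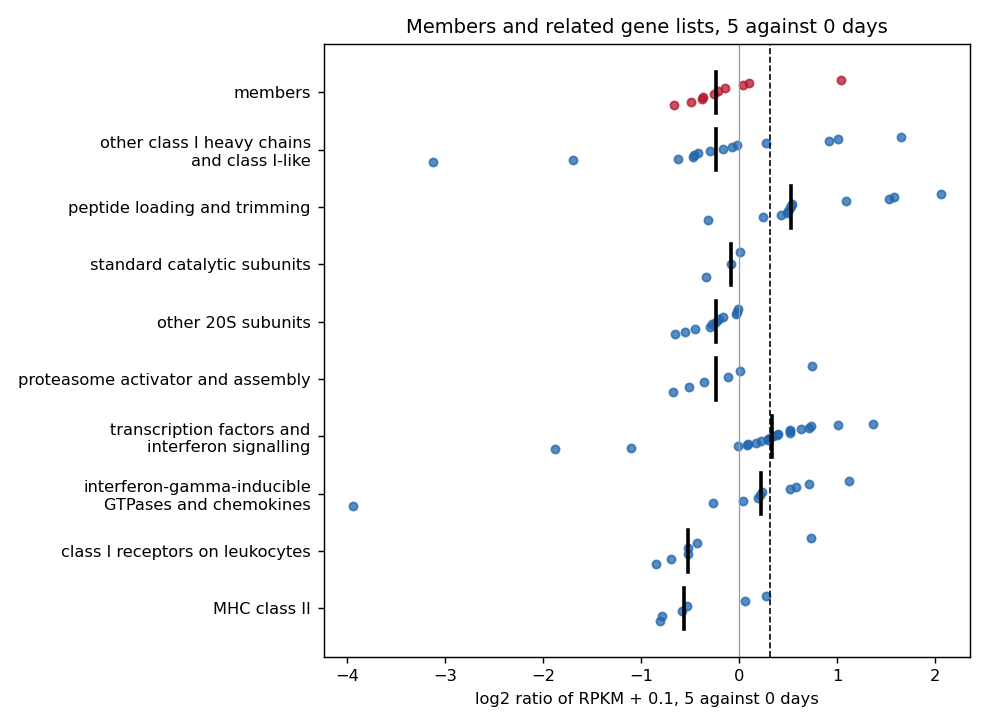
Log2 ratio of RPKM + 0.1 at 5 against 0 days for the 10 members (red) and the related lists (blue), 1 point per gene with at least 1 RPKM in either library. Ifnb1, with 0 reads at 5 days, is not drawn. Black bars are list medians and the dashed line is the median of all genes, 0.31. The medians of the members and of the 20S subunits lie at −0.24 and −0.23, and that of the loading and trimming genes at 0.52.

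Markers of several cell types moved at the same times. In these bulk samples fewer cells of a type and less RNA per cell cannot be told apart. All 10 late neutrophil markers fell by more than 2-fold at 5 days (5.91% of all genes), 9 of them with the length trend removed. Their summed RPKM was 149807, 115886 and 41359 at 0, 3 and 5 days. All 10 T and NK cell markers were below 0 at 3 days (42.9% of all genes), with summed RPKM of 253, 144 and 205. The 8 B cell markers summed to 1985, 1593 and 1425 RPKM, with 7 below 0 at 5 days (32.7% of all genes). The 6 dendritic cell markers summed to 260, 131 and 145 RPKM, of which Bst2 alone gave 174, 74.3 and 73.9. Of 9 macrophage and monocyte markers 5 were at least 2-fold higher at 5 days (15.5% of all genes), 3 under TMM scaling and 4 with the length trend removed. C1qa and C1qb were below 0 at 5 days, at −0.20 and −0.05. The 9 markers summed to 1315, 1560 and 1937 RPKM, of which Ly6c2 alone gave 932, 993 and 1138. The 4 promyelocyte markers summed to 2101, 1974 and 3475 RPKM, and the 5 stem and progenitor markers to 34.3, 26.8 and 41.0. Only 3 of these 5 passed the minimum at 5 against 0 days, with a median of 0.54, or −0.18 with the length trend removed. From 0 to 5 days Kit went from 8.19 to 16.1 RPKM, Hlf from 1.36 to 2.03 and Cd34 from 24.1 to 21.9. With the length trend removed Kit was at 0.28, Hlf at −0.18 and Cd34 at −0.49. The 7 erythroid markers summed to 4382, 3551 and 1534 RPKM, mostly the globins Hba-a1 and Hbb-b1. Of the 7 genes 4 were below 0 at 5 days (32.7% of all genes) and 3 above. None of these markers was without reads in a library, apart from the hepatocyte genes. The part of these cells in the ratios of the class I genes was not tested.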

How the data were processed

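BM RNA-seq libraries of 0, 3 and 5 days of LECT2 treatment, 1 per time point, were analysed. The authors deposited whole-number read counts per gene, from TruSeq libraries sequenced on a HiSeq 2000 and quantitated with Cufflinks 1.0.3. The processing notes name the build mm8, and the aligner is not given in the sources used here. Dividing the counts by gene length and by all counted reads gave the deposited RPKM, except in 18 rows at 0 days and 14 at 3 days, and genes without reads, listed at 0.01 RPKM, were set to 0. The deposited ratios, p-values and false discovery rates compare single libraries and were not used. The members and lists were chosen with earlier results of these data known.

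A symbol with several rows was represented by the row of highest mean RPKM. Log2 ratios used RPKM + 0.1, and calls used a fold of 2 and a minimum of 1 RPKM. Genes of the lists were named if they were the 2 most abundant, or among the 4 most changed by at least 2-fold with at least 5 RPKM. H2-M3 was named for its promoter, and Ifnb1 and Ciita after their values were seen. Changes of a within-library ratio were taken as conditional odds ratios with exact intervals. Alternatives were pseudocounts of 1 and 0.01, TMM factors (edgeR 4.0.16), median-of-ratios factors (DESeq2 1.42.0), reads outside the 100 most abundant genes, the sum of rows, a fold of 1.5, minimums of 5 RPKM and none, and removal of the length trend (lowess, span 0.3, statsmodels 0.14.6). Python 3.11.15, scipy 1.17.1 and R 4.3.3 were used, and the steps were tested on simulated counts. Positions are from GENCODE M21 (GRCm38) and promoters from RefSeq (GRCm38.p6), neither of which is the authors' build.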

Additional observations from a re-analysis of the deposited data

Results flagged for a closer look

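Among the members and the genes of the pathway lists named by the rule, 4 had a log2 ratio of opposite sign at 3 and at 5 days against the same library of 0 days, each with a counting interval that excluded 0. Tap1 was at −0.17 and then 0.10. Calr was at −0.087 and then 0.50. H2-Q10 was at 0.30 and then −3.12. Lilrb4 was at 0.39 and then −0.69. With 1 library per time point these differences were not tested. Tap1 lay below 0 at both times under TMM scaling.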

How the results depend on the processing

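The median log2 ratio of the members was −0.32 at 3 against 0 days, −0.24 at 5 against 0 days and 0.04 at 5 against 3 days. In the same order it was −0.40, −0.55 and −0.18 under TMM scaling, −0.40, −0.54 and −0.17 with median-of-ratios factors, −0.41, −0.44 and −0.061 without the reads of the 100 most abundant genes, and −0.20, −0.19 and −0.15 with the length trend removed. It thus stayed below 0 against 0 days under every alternative run, and its sign between 3 and 5 days depended on the scaling. Of the 30 log2 ratios of single members, 0 moved beyond their counting interval when rows of a symbol were summed or when the pseudocount was 1 or 0.01. The count of members at least 2-fold higher at 5 days, 1, was 0 with a pseudocount of 1, TMM scaling, median-of-ratios scaling, the reads outside the 100 most abundant genes and the length trend removed. With a fold of 1.5, 1 member, H2-D1, was lower at 5 days. Of the 30 single ratios, 25 moved downwards beyond their counting interval under TMM scaling, with 4 changes of sign, and with the length trend removed 9 moved up and 18 down, with 7 changes of sign. The immunoproteasome ratios did not change with the sum of rows. The cause of these shifts was not tested. With 1 library per time point no library could be left out. No paired analysis was possible because each group has 1 library. The depth gives every member at least 516 reads, and variation between mice was not measured.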

Other observations

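MHC class II transcripts and their transactivator were at very different levels. Ciita, the relative of Nlrc5 that switches on class II genes, was counted with 1, 5 and 7 reads after 0, 3 and 5 days, in the same libraries in which Cd74 had 23044, 16812 and 15912 reads and H2-Aa 6453, 4161 and 3743 reads. Nlrc5 had 516, 725 and 1072 reads. Ifnb1, a type I interferon gene, had 31, 11 and 0 reads, where a count of 0 allows up to 3 reads.

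H2-T24, a class I gene close to those of the members, had 650, 1151 and 784 reads after 0, 3 and 5 days, with a log2 ratio at 3 days of 0.86 (0.72 to 1.00), unlike H2-K1 and H2-D1. It was chosen after its values were seen.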
